A study of Mus musculus with 8 samples.

Results

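The genes described here are 10 transcription factors and cofactors of the epithelial-to-mesenchymal transition (EMT): *Zeb1*, *Zeb2*, *Snai1*, *Snai2*, *Snai3*, *Twist1*, *Twist2*, *Tcf3*, *Ctbp1* and *Ctbp2*. They were chosen by gene symbol, with earlier results of these data known, and all 10 are present among the 54532 genes of the deposited count table. Of these, 6 had enough reads to be tested, *Zeb1* was higher and *Zeb2* and *Tcf3* were lower in EpCAM+ cells, and *Ctbp1*, *Ctbp2* and *Snai3* did not pass the threshold. Such calls were common, at 42.6% of all genes tested. *Snai1*, *Snai2*, *Twist1* and *Twist2* were at or near 0 in both fractions.

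RNA-Seq was performed on 8 libraries of LSK cells, the Lin- C-KIT+ SCA-1+ fraction of bone marrow that holds stem and progenitor cells. The libraries were 4 sorted as EpCAM+ and 4 as EpCAM-. The study's methods give 4 mice per genotype and do not say whether both fractions came from the same mice. Every mouse was of the C57BL/6 background and carried *Zeb1* fl/fl and *Mx1-Cre*, was 8 to 12 weeks old, and was analyzed on day 14 from the final injection of pIpC, a double-stranded RNA that induces interferon and so switches on the *Mx1* promoter. Both fractions are labeled *Zeb1*-/-, no library came from undeleted mice, and *Mx1-Cre* is active in other interferon-responsive cells besides blood cells. A fold change below is EpCAM+ over EpCAM- within marrow so labeled, and it does not measure the effect of the deletion.

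Zeb and Snail proteins are zinc finger repressors that bind the E-box CACCTG, or CAGGTG on the other strand, in the promoters of epithelial genes. Zeb proteins recruit the corepressors CtBP1 and CtBP2, which bring histone deacetylases and the demethylase LSD1, whereas Snail proteins carry an N-terminal SNAG domain that recruits LSD1 directly. Twist proteins and E2A, the product of *Tcf3*, are basic helix-loop-helix (bHLH) factors that bind E-boxes as dimers, and Id proteins bind E proteins without contacting DNA and so withhold them. In blood, ZEB2 and E2A are better known as regulators of lineage choice than as EMT factors.

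The promoters of epithelial genes show the motif in question. Shown here are the 250 bases before the transcription start (RefSeq, GRCm38.p6, 5′ to 3′ on the gene's strand, with the E-boxes in capitals) of *Epcam*, whose product defined the sort, and of the 3 epithelial genes with at least 3 E-boxes in that window. *Crb3* encodes a polarity protein, *Ap1m2* a subunit of the epithelial clathrin adaptor and *Spint2* a membrane protease inhibitor. The windows are chr17:87635729-87635978 on the plus strand for *Epcam*, chr17:57061951-57062200 on the plus strand for *Crb3*, chr9:21312334-21312583 on the minus strand for *Ap1m2* and chr7:29281978-29282227 on the minus strand for *Spint2*.
Epcam: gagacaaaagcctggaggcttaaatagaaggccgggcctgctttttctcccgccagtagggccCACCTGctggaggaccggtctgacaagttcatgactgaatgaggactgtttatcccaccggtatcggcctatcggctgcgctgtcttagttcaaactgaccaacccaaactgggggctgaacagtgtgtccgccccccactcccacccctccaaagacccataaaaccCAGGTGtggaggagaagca
Crb3: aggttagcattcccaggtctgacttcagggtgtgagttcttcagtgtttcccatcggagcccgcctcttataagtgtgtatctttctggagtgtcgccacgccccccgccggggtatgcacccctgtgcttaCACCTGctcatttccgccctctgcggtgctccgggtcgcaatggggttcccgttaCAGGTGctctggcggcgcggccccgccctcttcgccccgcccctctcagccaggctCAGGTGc
Ap1m2: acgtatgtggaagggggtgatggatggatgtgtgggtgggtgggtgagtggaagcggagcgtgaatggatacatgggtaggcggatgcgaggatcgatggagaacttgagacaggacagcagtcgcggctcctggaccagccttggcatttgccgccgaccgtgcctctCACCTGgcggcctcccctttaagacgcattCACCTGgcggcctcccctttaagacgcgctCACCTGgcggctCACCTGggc
Spint2: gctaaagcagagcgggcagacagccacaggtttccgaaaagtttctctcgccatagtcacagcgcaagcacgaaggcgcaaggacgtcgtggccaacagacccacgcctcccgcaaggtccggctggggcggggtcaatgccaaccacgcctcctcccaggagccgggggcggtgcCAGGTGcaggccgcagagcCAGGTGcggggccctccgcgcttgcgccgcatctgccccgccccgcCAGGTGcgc

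With the start base counted as 0, the E-boxes of *Epcam* begin at -187 and -19, and those of this *Crb3* promoter at -118, -63 and -7. Those of *Ap1m2* begin at -81, -51, -21 and -9, and those of *Spint2* at -74, -55 and -9. All 4 genes were higher in EpCAM+ cells, by log2 fold changes of 5.56 for *Epcam*, 3.27 for *Crb3*, 2.62 for *Ap1m2* and 0.45 for *Spint2* (edgeR, adjusted p = 0.000121, 0.000301, 0.00075 and 0.00163). Without EpCAM- replicate 1, which held the most *Epcam* reads of its fraction, the value for *Epcam* was 6.44. A match to the letters is a description of the window and does not show that a factor was bound there.

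Each library held 14114491 to 17073546 reads on genes. Levels are given as CPM, reads of a gene per fixed library size after TMM scaling, and each test is edgeR's quasi-likelihood test over 13560 genes with p-values adjusted by Benjamini-Hochberg (threshold 0.05). At that threshold 42.6% of the tested genes were called, 21.8% higher and 20.8% lower in EpCAM+ cells, and in 40.1% the 4 EpCAM+ libraries did not overlap the 4 EpCAM- libraries, with EpCAM+ higher in 20.1% and lower in 20% of all tested genes. A call or a gap between fractions was thus common in this comparison. The near-even split depended on the scaling, since 26.9% were higher and 15.4% lower with upper-quartile scaling, and 25.6% and 15.2% with library totals. *Kit* and *Ly6a*, which encode the C-KIT and SCA-1 antigens of the gate, were detected in all 8 libraries, with 285 ± 39.9 CPM of *Kit* in EpCAM+ and 208 ± 38.2 CPM in EpCAM- libraries (SD, n = 4), and 201 ± 106 against 41.3 ± 29.4 CPM of *Ly6a*. *Epcam* had 161 to 234 CPM in EpCAM+ and 1.25 to 8.99 CPM in EpCAM- libraries.

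Several lists of cell type markers differed between the fractions. Of the tested markers, those higher in EpCAM+ cells were 13 of 17 for LSK cells, 4 of 9 for B cells, 7 of 10 for plasma cells, 13 of 15 for conventional dendritic cells, 4 of 5 for T cells, 3 of 10 for megakaryocytes and 3 of 7 for stromal cells, with none lower in these 7 lists. Those lower were 8 of 14 for neutrophils, 10 of 14 for erythroid cells (1 higher), 4 of 8 for mast cells (1 higher), 5 of 13 for monocytes (2 higher), 1 of 2 for natural killer cells (none higher) and 1 of 11 for plasmacytoid dendritic cells (4 higher). Over all tested genes, 21.8% were higher and 20.8% lower, so short lists such as that of megakaryocytes lie near this background. Markers low in 1 fraction could pass the filter on low counts through the other. Summed plasma cell markers reached 3860 to 50100 CPM in EpCAM+ against 446 to 658 CPM in EpCAM- libraries, led by *Igkc*, an immunoglobulin light chain gene. Summed neutrophil markers were 1160 to 1910 CPM against 12200 to 19000 CPM, led by *Mpo*, the myeloperoxidase of primary granules. A sum led by 1 gene does not show which cells held its reads. *Pax5* of the B cell list, *Cd3e* and *Bcl11b* of the T cell list and *Col1a1* and *Lepr* of the stromal list had no read in at least 1 fraction. EpCAM+ replicate 1 stood apart, with 50100 CPM of plasma cell markers and a chi-square per degree of freedom of 78.6 to 101 against the other EpCAM+ libraries, where other pairs within a fraction gave 10.6 to 42.8, so results are also given without it.

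*Zeb1* (ENSMUSG00000024238) kept reads in every library, and more in EpCAM+ cells. The EpCAM+ libraries held 363, 261, 373 and 290 reads, or 23.7, 14.8, 20.8 and 18.8 CPM, and the EpCAM- libraries 214, 189, 157 and 129 reads, or 13.4, 14, 10.7 and 9.49 CPM. The lowest EpCAM+ library lay just above the highest EpCAM- library, 14.8 against 14 CPM. *Zeb1* was 1.64-fold higher in EpCAM+ cells (19.5 ± 3.75 against 11.9 ± 2.14 CPM, log2 fold change 0.72, SE 0.17, 95% interval 0.33 to 1.10, edgeR adjusted p = 0.00798). Without EpCAM+ replicate 1 the log2 fold change was 0.60 (edgeR adjusted p = 0.0256). A gene-level count sums all exons, deleted or not, and cannot show whether these reads came from deleted or intact alleles, so it does not check the deletion. In these bulk samples, fewer cells of a type and less RNA per cell cannot be told apart.

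*Zeb2* (ENSMUSG00000026872, chr2:44983632-45117395, minus strand), the paralog of *Zeb1*, moved the other way. Its EpCAM+ libraries held 753, 949, 894 and 835 reads, or 49.2, 53.8, 50 and 54.1 CPM. The EpCAM- libraries held 1206, 1180, 1128 and 1027 reads, or 75.3, 87.3, 77 and 75.5 CPM. The fractions did not overlap, and the libraries within a fraction lay close together apart from EpCAM- replicate 2. *Zeb2* was 1.52-fold lower in EpCAM+ cells (51.8 ± 2.55 against 78.8 ± 5.74 CPM, log2 fold change -0.60, SE 0.07, 95% interval -0.77 to -0.44, edgeR adjusted p = 0.00033), and without EpCAM+ replicate 1 the value was -0.59. The antisense gene *Zeb2os* shares 653 of the 19942 exon bases of *Zeb2* and had 5 to 33 reads per library, and the strandedness of the counting is not given in the sources used here.

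Set against each other within a library, where library scaling cancels, the Zeb genes differed more than either did alone. Per kilobase of gene length, log2 of *Zeb2* over *Zeb1* was 0.09, 0.90, 0.30 and 0.57 in the EpCAM+ and 1.53, 1.68, 1.88 and 2.03 in the EpCAM- libraries. *Zeb2* thus exceeded *Zeb1* in all 8 libraries, by a mean factor of 1.38 in EpCAM+ and 3.44 in EpCAM- cells. On the deposited FPKM, which imply shorter gene lengths, these factors were 2.12 and 5.28, so their size depends on the length used, while the fold between the fractions does not. The ratio was 2.49-fold lower in EpCAM+ cells (two-sided exact permutation of 4 against 4 libraries, p = 0.0286, the smallest these numbers allow, and 0.0357 after adjustment over the 5 ratios tested), and lower in 4 of 4 pairs of libraries with the same replicate number. Both outcomes were fixed once *Zeb1* and *Zeb2* separated the fractions in opposite directions, so they add no evidence to the results of each gene. The permutations here and below took the libraries as unpaired, and 4 pairs allow no exact p under 0.125. *Zeb1* made up 34.8 to 48.4% of the Zeb transcripts in EpCAM+ libraries and 19.6 to 25.6% in EpCAM- libraries, or 25.8 to 37.9% and 13.7 to 18.4% on FPKM.

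The summed level of *Zeb1* and *Zeb2* differed less. On CPM per kilobase it was 4.5 ± 0.266 in EpCAM+ and 5.11 ± 0.447 in EpCAM- cells, a log2 difference of -0.18 (two-sided exact permutation of 4 against 4 libraries, p = 0.0571). On the deposited FPKM it was 35.9 ± 0.771 against 41.6 ± 3.42, a log2 difference of -0.21 (same exact test, p = 0.0286). The call on the sum therefore depended on the scale used. Summed plasma cell markers were higher in EpCAM+ libraries, as *Zeb1* was, and summed neutrophil and erythroid markers were higher in EpCAM- libraries, as *Zeb2* was. The part of the cells that hold these markers in these differences was not tested.

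**Figure D1:**
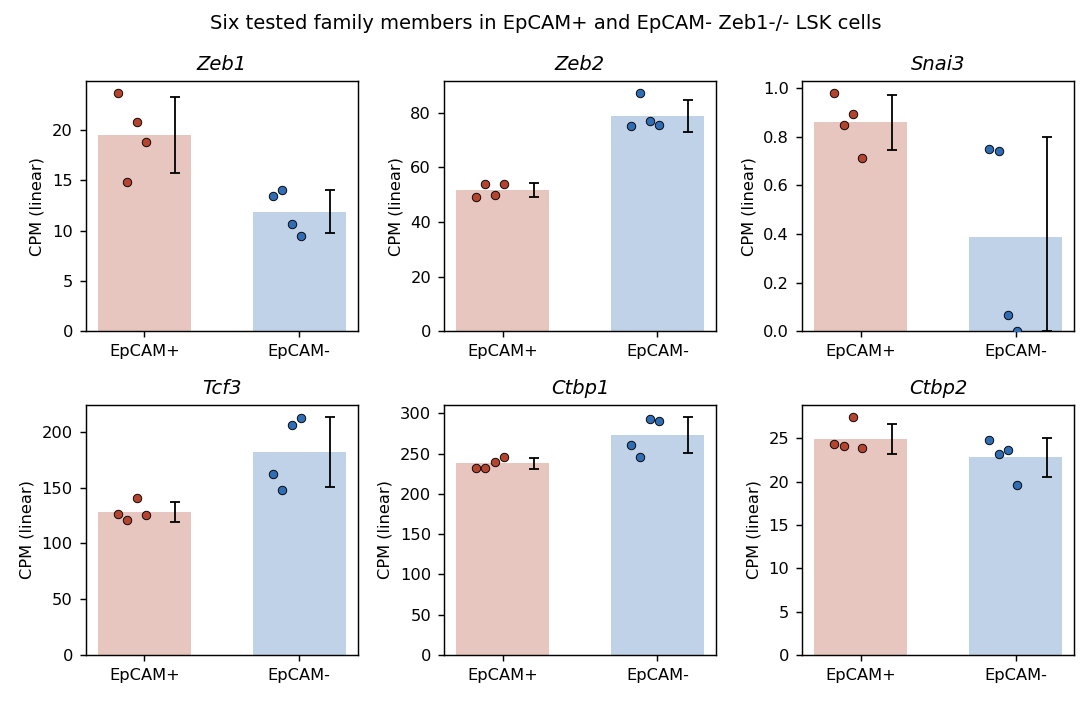
Level in CPM (linear axis from 0) of the 6 tested members in 4 EpCAM+ and 4 EpCAM- *Zeb1*-/- LSK libraries, with points for libraries, bars for means and error bars for the SD, cut at 0 for *Snai3*. *Zeb1* lies at 14.8 to 23.7 CPM in EpCAM+ and 9.49 to 14 CPM in EpCAM- libraries, *Zeb2* and *Tcf3* are lower in every EpCAM+ library, and *Ctbp2* overlaps between the fractions.

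The genes with the level most like *Zeb1* over the 8 libraries, by Pearson's r of log2 CPM, were *Itgav* (r = 0.989), which encodes integrin alpha V, *Pafah1b3* (r = 0.989), a subunit of a platelet-activating factor acetylhydrolase, and *Iqsec1* (r = 0.983), an exchange factor for ARF GTPases. Those most like *Zeb2* were *Siglece* (r = 0.995), an inhibitory sialic acid receptor of myeloid cells, *Srsf10* (r = 0.995), a splicing factor, and *Calr* (r = 0.992), which encodes calreticulin. Of 11734 protein-coding genes, 485 exceeded r = 0.9 with *Zeb1* and 944 with *Zeb2*. The points share the split into fractions, which alone gives a high r to any gene that differs between them.

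The Snail family was nearly silent. *Snai1* had 2, 0, 1 and 0 reads in the EpCAM+ libraries and 1 read in each EpCAM- library. *Snai2*, which encodes Slug, had no read in any EpCAM+ library and 2 reads in EpCAM- replicate 2 alone. A floor of 3 reads corresponds to 0.168 to 0.222 CPM in these libraries, and both genes stayed under it, so no fold is given.

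*Snai3* was the only Snail gene that passed the filter on low counts, and it passed through its EpCAM+ libraries. The EpCAM+ libraries held 15, 15, 16 and 11 reads, and the EpCAM- libraries 12, 10, 1 and 0 reads. EpCAM- replicates 1 and 2 thus reached the range of the EpCAM+ libraries, while replicates 3 and 4 held 1 read or none. Since the filter was passed where the gene is high, its fitted log2 fold change of 1.11 (95% interval -0.40 to 2.61, edgeR adjusted p = 0.209) is given as a description, and no direction is read from it. The log2 difference of its ratio to *Zeb1* was 1.30 with 0.5 reads added (two-sided exact permutation of 4 against 4 libraries, p = 0.371) and 0.14 with 5 reads added, so its size rests on the libraries with 1 read or none.

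The Snail list, which holds corepressors, kinases and ubiquitin ligases that act on Snail proteins and other SNAG-domain repressors, had 18 tested genes, of which 5 rose and 4 fell in EpCAM+ cells, and its median log2 fold change was 0.01, where that over all tested genes was 0.02. Over all tested genes, 21.8% were higher and 20.8% lower, so these counts are near that background. *Prmt5*, an arginine methyltransferase that SNAIL recruits through AJUBA, fell by 0.55 on the log2 scale (125 ± 6.38 against 183 ± 10.3 CPM, edgeR adjusted p = 0.000339). *Suv39h1*, a histone H3 lysine methyltransferase, fell by 0.54 (71.1 ± 4.6 against 103 ± 5.62 CPM, adjusted p = 0.000507). *Gfi1b*, a SNAG-domain repressor of the erythroid and megakaryocytic lineages, fell by 0.89 (119 ± 12.2 against 220 ± 63.5 CPM, adjusted p = 0.00323). *Wtip*, a LIM protein related to AJUBA, had 0.89 ± 0.0981 against 0.312 ± 0.0404 CPM (fitted log2 fold change 1.49, edgeR adjusted p = 0.0042). It passed the filter on low counts through its EpCAM+ libraries, so this value is a description, though *Wtip* is among the 5 counted. With 10 counts required in every library, 4 of 17 tested genes of the list rose. *Gfi1b* was highest in EpCAM- replicates 3 and 4, at 248 and 296 CPM, and summed erythroid markers were highest in the same libraries, at 9280 and 11800 CPM against 4650 and 4750 CPM in EpCAM- replicates 1 and 2 and 2350 to 3900 CPM in EpCAM+ libraries. The part of erythroid RNA in the difference was not tested. The number that rose was 2 without EpCAM+ replicate 1 or EpCAM- replicate 2, and 3 without EpCAM+ replicate 3 or EpCAM- replicate 4.

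*Twist1* had 1, 1, 2 and 1 reads in the EpCAM+ and 0, 1, 3 and 0 reads in the EpCAM- libraries, and *Twist2* had none in any library. No value of either gene exceeded the floor of 3 reads. A difference in Twist transcripts was not detectable at this depth.

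*Tcf3* (ENSMUSG00000020167, chr10:80409514-80433647, minus strand) was the most abundant E-box binding member. EpCAM+ libraries held 126, 121, 141 and 125 CPM, from 1927 to 2526 reads, and EpCAM- libraries 162, 148, 206 and 212 CPM, from 2006 to 3012 reads. The fractions did not overlap, and EpCAM- replicates 3 and 4 were well above EpCAM- replicates 1 and 2. *Tcf3* was 1.42-fold lower in EpCAM+ cells (128 ± 8.83 against 182 ± 31.6 CPM, log2 fold change -0.51, SE 0.12, 95% interval -0.76 to -0.25, edgeR adjusted p = 0.0065), and the value was -0.50 without EpCAM+ replicate 1. Summed erythroid markers were also highest in EpCAM- replicates 3 and 4 (9280 and 11800 CPM, with 4650 and 4750 CPM in replicates 1 and 2) and, among EpCAM+ libraries, in replicate 3 (3900 CPM), where *Tcf3* was highest as well. The part of erythroid RNA in the level of *Tcf3* and in its ratio to other E proteins was not tested.

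The other E proteins did not pass the threshold. *Tcf4*, which encodes E2-2, had 107 ± 7.1 CPM in EpCAM+ and 91.2 ± 14.2 CPM in EpCAM- libraries (log2 fold change 0.23, edgeR adjusted p = 0.107). With replicate number added as a block, *Tcf4* passed (0.24, edgeR adjusted p = 0.0488). *Tcf12*, which encodes HEB, had 37.2 ± 2.64 against 37.9 ± 4.61 CPM (log2 fold change -0.02, 95% interval -0.25 to 0.20, adjusted p = 0.867), and its sign turned with the scaling. Within libraries and per kilobase, *Tcf3* was on average 5.03 times the sum of *Tcf4* and *Tcf12* in EpCAM+ cells and 7.73 times that sum in EpCAM- cells, but 0.747 and 1.19 times on the deposited FPKM, so the length used decides which is higher. Log2 of this ratio was 2.27, 2.34, 2.36 and 2.36 in EpCAM+ and 2.70, 2.65, 3.22 and 3.24 in EpCAM- libraries, so the EpCAM+ libraries nearly coincided. The mean difference was -0.62 (two-sided exact permutation of 4 against 4 libraries, p = 0.0286, 0.0357 adjusted over the 5 ratios). *Tcf3* alone already separated the fractions, so this p adds little to its own result.

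Id genes, the inhibitors of E proteins, were unequal. *Id2* had 266, 34.8, 75.9 and 293 CPM in EpCAM+ and 23.6, 9.55, 10.6 and 9.93 CPM in EpCAM- libraries. Every EpCAM+ library exceeded every EpCAM- library, and EpCAM+ replicates 1 and 4 were far above replicates 2 and 3. *Id2* rose by 3.63 on the log2 scale (SE 0.65, edgeR adjusted p = 0.00178), and by 3.30 without EpCAM+ replicate 1. *Id3* rose by 1.58 (2.71 ± 0.616 against 0.895 ± 0.14 CPM, adjusted p = 0.0014), while *Id1* had 1.92 ± 1.4 against 2.77 ± 0.684 CPM (log2 fold change -0.53, adjusted p = 0.332) and *Id4* had 1 read in all.

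The summed Id level per kilobase was 1.4 times that of the 3 E proteins in EpCAM+ cells and 0.163 times in EpCAM- cells, or 0.698 and 0.087 times on FPKM. Log2 of the ratio was 1.56, -1.05, -0.32 and 1.76 in EpCAM+ and -1.93, -2.52, -3.07 and -2.96 in EpCAM- libraries, an 8.61-fold difference (two-sided exact permutation of 4 against 4 libraries, p = 0.0286, 0.0357 adjusted over the 5 ratios). The ratio rested mainly on *Id2*, which separated the fractions upward, while *Tcf3* separated them downward. The smallest p these numbers allow was thus largely fixed and adds little to the results of each gene. Summed markers of conventional dendritic cells, which express *Id2*, ordered the EpCAM+ libraries in the same way, with 12500, 1760, 3950 and 13100 CPM in replicates 1 to 4, against 735 to 1120 CPM in EpCAM- libraries. The part of such cells in the *Id2* values was not tested.

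**Figure D2:**
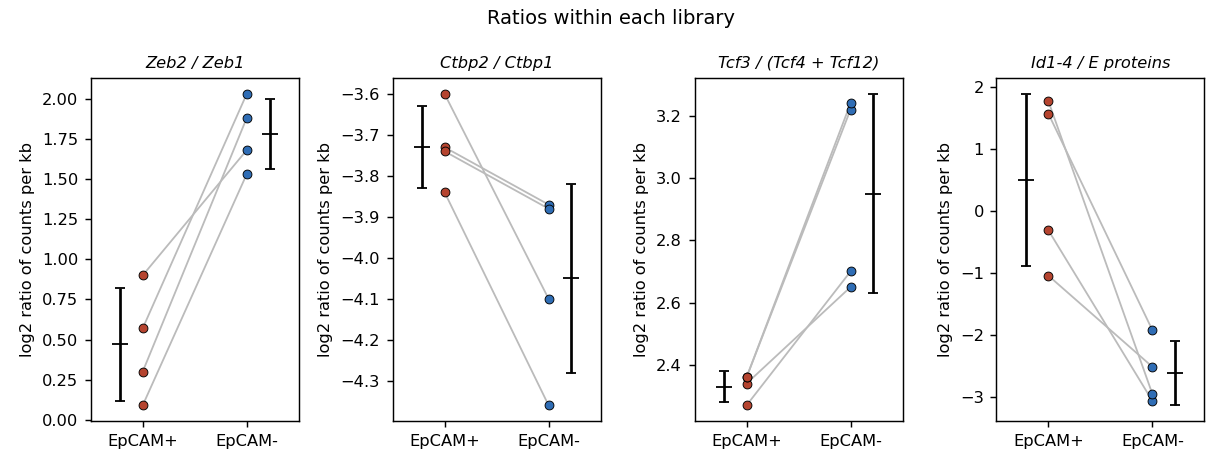
Log2 ratios of counts per kilobase within each library (points), joined by replicate number, with the mean and SD beside each fraction. *Zeb2* over *Zeb1* lies at 0.09 to 0.90 in EpCAM+ and 1.53 to 2.03 in EpCAM- libraries, and none of the 4 ratios drawn overlaps between the fractions. The ratio of *Snai3* to *Zeb1*, also tested, overlapped and is not drawn. Among all tested genes, 40.1% did not overlap in CPM.

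In the list of E proteins, their bHLH partners and Id inhibitors, 13 of 33 genes were tested, 5 rose and none fell, with a median log2 fold change of 0.32. The shares over all tested genes were 21.8% higher and 20.8% lower. Besides *Id2* and *Id3*, *Tcf15*, a bHLH factor known from somites and from quiescent hematopoietic stem cells, rose by 1.86 (8.48 ± 1.89 against 2.31 ± 1.06 CPM, edgeR adjusted p = 0.0012). *Lmo2*, a LIM-only adaptor that links E proteins and TAL1 in a stem cell complex, rose by 0.42 (1100 ± 98.4 against 822 ± 49.2 CPM, adjusted p = 0.00366). *Cbfa2t3*, which encodes the corepressor ETO2 of that complex, was the fifth (log2 fold change 0.56, adjusted p = 0.0119). *Tal1* itself had 33.7 ± 3.19 against 34.3 ± 2.47 CPM and did not pass. Of the 20 untested genes, which include many tissue-specific bHLH factors, 12 had no read in any library. Summed LSK markers were 5020 to 5680 CPM in EpCAM+ and 2660 to 3750 CPM in EpCAM- libraries, and their part in these differences was not tested.

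The CtBP corepressors were the most even members. *Ctbp1* (ENSMUSG00000037373, chr5:33247723-33274994, minus strand) had 232, 232, 240 and 246 CPM in EpCAM+ and 261, 246, 293 and 291 CPM in EpCAM- libraries, from 3329 to 4299 reads. EpCAM- replicate 2 was close to EpCAM+ replicate 4, and the others were clearly higher. The mean was 238 ± 6.75 CPM in EpCAM+ and 273 ± 22.8 CPM in EpCAM- cells, a log2 fold change of -0.20 (SE 0.07, 95% interval -0.36 to -0.03), which missed the threshold (edgeR adjusted p = 0.052). It passed once replicate number entered as a block (log2 fold change -0.20, adjusted p = 0.0172) and with DESeq2 (-0.21, adjusted p = 0.0228), and it was -0.11 (adjusted p = 0.223) with upper-quartile scaling and -0.12 (adjusted p = 0.235) with library totals, so both its size and its call depended on the model.

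*Ctbp2* (ENSMUSG00000030970, chr7:132987563-133124354, minus strand) had 24.3, 24.1, 27.5 and 23.9 CPM in EpCAM+ and 24.8, 23.2, 23.7 and 19.6 CPM in EpCAM- libraries. The fractions overlapped, and the log2 fold change of 0.13 had a 95% interval of -0.09 to 0.35 (edgeR adjusted p = 0.321). Its ratio to *Ctbp1* did separate the fractions. Log2 of *Ctbp2* over *Ctbp1* per kilobase was -3.73, -3.74, -3.60 and -3.84 in EpCAM+ and -3.87, -3.88, -4.10 and -4.36 in EpCAM- libraries, and EpCAM+ replicate 4 lay just above EpCAM- replicate 1. *Ctbp2* was 0.0755 times *Ctbp1* in EpCAM+ and 0.0602 times in EpCAM- cells, or 0.116 and 0.0924 times on FPKM, with a 1.26-fold difference on both scales (two-sided exact permutation of 4 against 4 libraries, p = 0.0286, 0.0357 adjusted over the 5 ratios).

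Per kilobase of gene length the order of the members was *Ctbp1*, *Tcf3*, *Ctbp2*, *Zeb2*, *Zeb1* and *Snai3* in EpCAM+ cells, with mean levels of 53.1, 31.8, 4.01, 2.6, 1.9 and 0.528 CPM per kilobase. In EpCAM- cells the levels were 60.9, 45.1, 3.67, 3.95, 1.16 and 0.239, so that *Zeb2* and *Ctbp2* changed places. The ranges of these neighbors overlapped there, at 3.77 to 4.38 for *Zeb2* and 3.15 to 3.98 for *Ctbp2*, and on the deposited FPKM *Zeb2* had the higher mean in both fractions, with 24.3 and 34.9 against 21.7 and 18.8 for *Ctbp2*. The order of *Ctbp2* and *Zeb2* thus depends on the length used, whereas *Ctbp1*, *Tcf3*, *Zeb1* and *Snai3* kept their places on both scales. *Snai1*, *Snai2*, *Twist1* and *Twist2* lay at or under 0.0459 CPM per kilobase on average and cannot be ordered.

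The 26 genes of the list of Zeb and CtBP corepressor partners were all tested, of which 6 rose and 4 fell, with a median log2 fold change of 0.05. These counts are near the shares over all tested genes, 21.8% higher and 20.8% lower. *Hdac2*, a class I histone deacetylase, fell by 0.37 on the log2 scale (281 ± 9.01 against 363 ± 18 CPM, edgeR adjusted p = 0.00187). *Rbbp4* and *Mta2*, both of the NuRD deacetylase complex, fell by 0.46 (301 ± 38.5 against 414 ± 44.2 CPM, adjusted p = 0.00717) and 0.32 (211 ± 11 against 263 ± 27.1 CPM, adjusted p = 0.0129). *Zfp516*, a zinc finger protein found with CtBP complexes, rose by 0.93 (4.91 ± 1.08 against 2.56 ± 0.636 CPM, adjusted p = 0.0125). *Hdac1* had 322 ± 6.74 against 318 ± 7.99 CPM and *Kdm1a*, which encodes LSD1, 81.7 ± 3.43 against 92.3 ± 6.7 CPM, and neither passed (adjusted p = 0.812 and 0.0707). The number that rose was 2 without EpCAM+ replicate 3, and 3 without EpCAM+ replicates 1 or 2 or EpCAM- replicates 3 or 4.

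The epithelial genes that Zeb or Snail proteins are known to repress were mostly higher in EpCAM+ cells. Of 47 genes 25 were tested, 22 rose and none fell, with a median log2 fold change of 1.64, where 21.8% of all tested genes rose. Genes low in EpCAM- cells could pass the filter on low counts through their EpCAM+ libraries. With 10 counts required in every library, 18 of 19 tested genes of the list rose. *St14*, a membrane serine protease, had 70.4 ± 7.21 against 20.5 ± 3.07 CPM (log2 fold change 1.78, edgeR adjusted p = 4.21e-05), *Krt18*, a keratin, 177 ± 11.3 against 80.6 ± 10.7 CPM (1.14, adjusted p = 0.000123) and *Marveld2*, a tricellular junction protein, 27.5 ± 3.33 against 8.83 ± 1.7 CPM (1.64, adjusted p = 0.00014). Among those that did not pass were *Muc1* and *Grhl1* (edgeR adjusted p = 0.0859 and 0.172). The list was chosen with earlier results of these data known, so its count is no independent evidence. It holds and counts *Epcam*, on whose product the fractions were sorted, and the part of that gate in the other genes was not tested. *Grhl2*, which encodes a repressor of *Zeb1*, had no read in any library, nor did the hairpin genes of the miR-200 family, whose mature forms target Zeb transcripts but are not captured by libraries of this kind.

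Mesenchymal genes did not move as a group. Of 31 genes 12 were tested, with 2 higher and 2 lower and a median log2 fold change of 0.02, equal to that of all tested genes. Across those, 21.8% were higher and 20.8% lower. *Axl*, a receptor tyrosine kinase, rose by 1.84 (5.6 ± 1.38 against 1.57 ± 0.82 CPM, edgeR adjusted p = 0.00229) and *Tgfbi*, a matrix protein induced by TGF-beta, rose by 1.66 (17.6 ± 7.47 against 5.53 ± 2.18 CPM, adjusted p = 0.00391). *Col5a1*, a fibrillar collagen chain, had 0.44 ± 0.231 against 19 ± 10.5 CPM (fitted log2 fold change -5.41, edgeR adjusted p = 0.000165). It passed the filter on low counts through its EpCAM- libraries, so this value is a description, though *Col5a1* is among the 2 counted as lower. *Mmp14*, a membrane metalloprotease, fell by 1.93 (6.73 ± 1.58 against 25.6 ± 21.7 CPM, edgeR adjusted p = 0.011), or by 1.18 without EpCAM- replicate 4. *Vim*, which encodes the intermediate filament vimentin, was high in both, at 286 ± 39.3 and 258 ± 32.2 CPM (log2 fold change 0.15, adjusted p = 0.321). In the fit blocked by replicate number, 4 genes of the list rose. Of the 19 untested genes, 7 had no read in any library, among them *Col1a1* and *Prrx1*, both typical of mesenchymal cells.

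**Figure D3:**
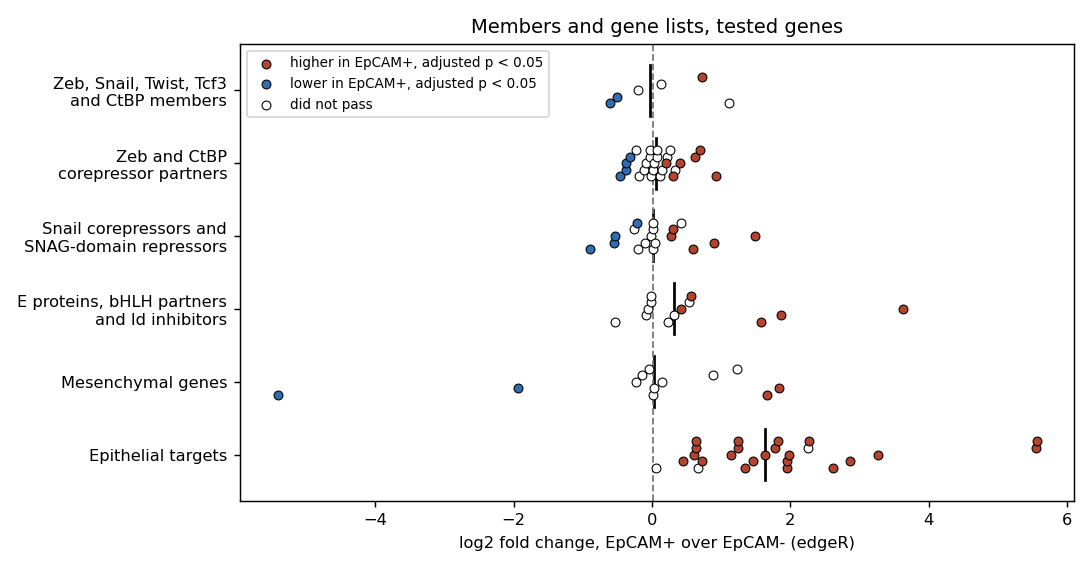
Log2 fold change of the tested genes in each list (points, colored by call), with the list median as a black bar and the median of all 13560 tested genes, 0.02, as a dashed line. The epithelial targets lie to the right of the line with a median of 1.64, while the corepressor and mesenchymal lists are centered on it.

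The E-box was common in the promoters of the epithelial list. Over the 300 bases from 250 before to 50 after the start, 20.2% of 32851 RefSeq promoters held CACCTG or CAGGTG and 2.88% held at least 2. In the epithelial list, 22 of 31 promoters (71%), belonging to 23 genes, held the motif and 12 (38.7%) held at least 2. The genes of this list were chosen as known targets, so this share is no independent evidence. Among its tested genes, 12 of the 13 with the motif rose (median log2 fold change 1.98) and 2 of the 3 without it rose (median 1.25). Of the 9 with no promoter that was searched, 8 rose (median 1.34). The 13 include *Epcam*, the gene of the sort, and genes could pass the filter on low counts through their EpCAM+ libraries. With 3 genes lacking the motif, no contrast is read from these counts. Of the members, 7 genes had 11 promoters that could be searched, and 1 of these held the motif, that of *Snai1* at -126.

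Across all tested genes, the share called higher in EpCAM+ cells went up with the number of these E-boxes. A gene with several promoters was classed by the promoter with the most, so it had more chances of a high class. Of 9742 tested genes with a promoter in the table, 22.8% were higher and 22.1% lower. Among the 7741 genes with no such E-box, 21.5% were higher and 23.3% lower. With 1 E-box (1732 genes) the shares were 26.2% and 18.4%, with 2 (240 genes) 37.1% and 12.5%, and with 3 or more (29 genes) 44.8% and 10.3%. The median log2 fold change went from 0.01 through 0.07 and 0.26 to 0.45.

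The palindromic E-box CAGCTG, bound by E proteins and other bHLH factors, gave a like order for small numbers. It cannot overlap CACCTG or CAGGTG, reads the same on both strands and was found in 16.3% of all promoters. The share higher in EpCAM+ cells was 21.4% in the 8053 genes with none, 29.2% in the 1524 with 1 and 31.9% in the 144 with 2, and the shares lower were 23.2%, 17.3% and 13.2%. The 21 genes with 3 or more were called higher in 33.3% and lower in 28.6%, with a median log2 fold change of -0.10. The order was thus not limited to the Zeb and Snail type of E-box, and its cause was not tested.

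**Figure D4:**
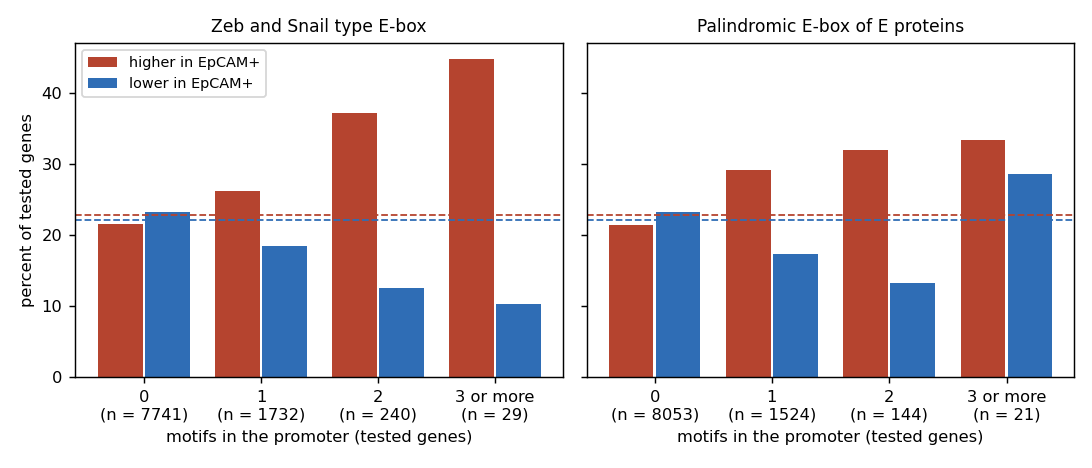
Percent of tested genes called higher or lower in EpCAM+ cells (bars, axis from 0), by the most E-boxes in any promoter. The panels show the Zeb and Snail type and the palindromic type, with dashed lines at the shares of all 9742 matched genes. For the Zeb and Snail type the share called higher goes from 21.5% with none to 44.8% with 3 or more.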

How the data were processed

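RNA-Seq was analyzed for 8 libraries of sorted *Zeb1*-/- LSK cells (SMART-Seq v4 amplification, 150-bp paired ends in the study's protocol). Per the labels and the study's methods, the authors aligned reads with STAR 2.6.1d to GRCm38.p6 and deposited whole-number counts per gene from featureCounts 1.5.0-p3, without normalization, beside FPKM, a length column and their own DESeq2 1.20.0 fold changes and p-values, which were not used. The deposited FPKM, in the authors' normalization, imply shorter lengths than the length column and served only for levels per length and as an alternative for ratios. The annotation release and strandedness are not given in the sources used here.

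Genes were filtered with filterByExpr, scaled by TMM and tested with edgeR 4.0.16 (R 4.3.3, two-sided), with DESeq2 1.42.0 as an alternative. The procedure was run on simulated counts in which few genes changed, evenly up and down. That run cannot check the scaling in a comparison where 42.6% of genes were called. Standard errors come from the F statistic. Ratios used counts per kilobase of the length column with 0.5 counts added (5 as an alternative), for *Zeb2* and *Snai3* to *Zeb1*, *Ctbp2* to *Ctbp1*, *Tcf3* to other E proteins and Id genes to E proteins. Intervals and floors cover counting error or the spread of 4 libraries only, and reads carry no molecular identifiers. Motifs were searched in RefSeq promoters (GRCm38.p6) on both strands, leaving out chromosome 18 for the members and lists.

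The members, gene lists and tests were chosen with earlier results of these data known. Named genes are the members, *Epcam*, genes used in ratios, up to 4 genes per list with the smallest adjusted p past the threshold, the leading or absent genes of marker lists, and 3 genes most like *Zeb1* or *Zeb2*. Others named (*Crb3*, *Ap1m2*, *Spint2*, *Kit*, *Ly6a*, *Cbfa2t3*, *Tal1*, *Hdac1*, *Kdm1a*, *Vim*, *Muc1*, *Grhl1*, *Grhl2* and *Prrx1*) were chosen after their values were seen.

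Same-numbered libraries deviated together from their fraction means (correlation across genes 0.205 to 0.356 in 4 pairs, against -0.216 to 0.0396 in the 12 other pairs), so the numbers appear to pair the samples. The main tests left this pairing out, and tests with replicate number as a block are given as alternatives. The sources used here do not say what a number shares, and p-values measure the spread between these samples. Each library was also left out in turn. Python 3.11.15 and matplotlib 3.10.9 drew the figures.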

Additional observations from a re-analysis of the deposited data

Results flagged for a closer look

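In 22 groups of 4 libraries (members' CPM and the ratios, per fraction), the highest or lowest library stood apart from the rest beyond Dixon's 95% limit in 2, and chance gives about 1 in 20. The CPM of *Zeb2* in EpCAM- cells was one of them, where replicate 2 at 87.3 CPM lay apart from 75.3 to 77 CPM (gap over range 0.858). *Ctbp2* in EpCAM+ cells was the other, where replicate 3 at 27.5 CPM lay apart from 23.9 to 24.3 CPM (gap over range 0.874).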

How the results depend on the processing

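*Zeb1*, *Zeb2* and *Tcf3* kept their direction and their call in all 8 alternatives and in all 8 fits that left out 1 library, where *Zeb1* ranged from 0.60 to 0.83, *Zeb2* from -0.63 to -0.56 and *Tcf3* from -0.60 to -0.43. *Ctbp1* passed with DESeq2 (-0.21, adjusted p = 0.0228), DESeq2's size factors in edgeR (-0.21, 0.0476), protein-coding genes alone (-0.20, 0.0466) and the replicate block (-0.20, 0.0172), but not with upper-quartile scaling (-0.11, 0.223), library totals (-0.12, 0.235) or either other filter, and ranged from -0.25 to -0.17 with 1 library left out. *Tcf4* passed with upper-quartile scaling (0.32, adjusted p = 0.0458) and with the block (0.24, 0.0488). *Id1* passed without EpCAM+ replicate 4 (-1.18, adjusted p = 0.0135). The sign of *Tcf12* turned with upper-quartile scaling (0.06), library totals (0.06) and 10 counts in every library (0.00), and it ranged from -0.10 to 0.04 with 1 library left out.

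With the replicate block the ratios kept their differences (-1.32 for *Zeb2* to *Zeb1*, 0.33 for *Ctbp2* to *Ctbp1*, -0.62 for *Tcf3* to the other E proteins and 3.11 for Id genes to E proteins), but 4 pairs allow no p under 0.125, which each reached, and 4 libraries against 3 none under 0.0571. With 1 library left out these ratios ranged from -1.46 to -1.19, 0.23 to 0.39, -0.72 to -0.53 and 2.68 to 3.62. The ratio of *Snai3* to *Zeb1*, which did not pass, was 0.14 with 5 counts added and ranged from 0.55 to 1.85 with 1 library left out. FPKM in place of counts, an alternative added after the data were seen, gave -1.32, 0.33, -0.67 and 3.00. Of the mesenchymal list, 4 genes rose with the block and 1 fell with 10 counts in every library. The block changed no other call of a gene named from the members or lists by rule. Keeping every gene with at least 1 count moved the median of all tested genes to 0.141. Depth limited *Snai1*, *Snai2*, *Twist1* and *Twist2*.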
